A study of Homo sapiens with 6 samples.

Results

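HuccT1 cells, a line labelled as bile duct carcinoma, were exposed to regorafenib at 10 μM and compared with HuccT1 cells given solvent alone. The comparison takes in 2 of the 6 arrays of the study, chosen by their labels, with 1 array a side. The other 4 arrays hold HuccT1 cells at 1 μM and KKU-100 cells, labelled as poorly differentiated cholangiocarcinoma, with solvent, 1 μM or 10 μM. The labels add that the cells were stably transduced and selected with puromycin, in every group including the solvent controls, and name no construct. The paper states lower doses than the labels do and a treatment of a few hours, and the doses printed here are those of the labels. The study asked which signalling pathways regorafenib changes in cholangiocarcinoma cells. With single arrays nothing measures the spread between replicates, so all values are descriptions of these RNA samples and carry no error or p-value. Since each array measured the RNA of a whole culture, fewer cells in a state and less RNA per cell cannot be told apart.

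Regorafenib is an oral inhibitor of several kinases, among them receptors of vascular and stromal growth factors and kinases that act above MEK and ERK. Active ERK induces genes that then restrain it, such as the dual-specificity phosphatases and the Sprouty proteins, so their transcripts are widely read as a gauge of ERK output. The integrated stress response is a separate programme: kinases that sense missing amino acids, unfolded proteins, haem deficiency or viral RNA phosphorylate the initiation factor eIF2, general translation falls, and the transcription factor ATF4 is translated more. ATF4 pairs with CEBP proteins on composite DNA elements near genes for amino acid synthesis, amino acid import, tRNA charging and, under lasting stress, cell death. Interferon-stimulated genes carry a different element in their promoters, which is bound by interferon regulatory factors.

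The array is the Affymetrix HG-U133 Plus 2.0, on which a gene is read by 1 or several probe sets. Median signals were close, at 28.8 with solvent and 28.9 at 10 μM, and 18 hybridization spike-ins differed by log2 -0.07 to 0.17. The ratio of 3' to 5' signal, a measure of RNA integrity, went from 1.13 to 1.22 for ACTB and from 1.03 to 1.06 for GAPDH. All 12 measured epithelial and biliary markers lay above the array median on both arrays, with a summed signal of 48437 with solvent and 42753 at 10 μM. Cytokeratin 7 (KRT7), a bile duct keratin, had signals of 10354 and 10486. ALB, the defining gene of hepatocytes, was near the floor of the array at 8.27 and 8.19, while the secreted protease inhibitor SERPINA1 read 2411 and 3509. Summed signals of 7 fibroblast, 6 endothelial and 6 immune cell markers stayed low, at 313 and 312, 142 and 181, and 161 and 150. PTPRC, which marks leukocytes, read 10.1 and 10.3. Above the array median on both arrays were 3 of 8 hepatocyte, 3 of 7 fibroblast, 3 of 6 endothelial and 2 of 6 immune markers.

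Of 27338 probe sets with a signal above the array median, averaged over both arrays, 1963 (7.18%) were higher and 2072 (7.58%) lower at 10 μM by more than 1.5-fold, the cutoff of the study. Each of 12766 genes was then represented by its brightest own probe set, and 1054 genes (8.26%) were higher and 822 (6.44%) lower. These shares are the background for every list count given here. The share of called probe sets was largest at middling signals: with probe sets ranked by signal into 4 equal bins, 9.47% were higher in bin 2 and 5.19% in the brightest bin. Among 2789 probe sets that the annotation assigns to no gene, 4.27% were higher and 8.5% lower.

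Repeated probe sets allowed a check within the same RNA, and 6188 genes had several past the level filter. In 200 of these genes (3.23%) every probe set past the filter was higher by more than 1.5-fold. In 178 (2.88%) every such probe set was lower, and in 17 (0.275%) they passed the cutoff in opposite directions. Here and below, all, both or every probe set of a gene means those past the level filter. With no filter, 166 genes had all of several probe sets higher and 141 had all lower. Of the 949 called genes with several probe sets, 802 (84.5%) had all of them on the same side of 0 and 378 (39.8%) had all of them past the cutoff. Past 2-fold these shares were 92.3% and 65.4% of 286 genes. The other 927 called genes (49.4% of all called) rest on a single probe set past the filter. Probe sets of a gene are repeat readings of the same RNA, not replicates, so agreement speaks to the probes and not to the treatment.

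**Figure D1:**
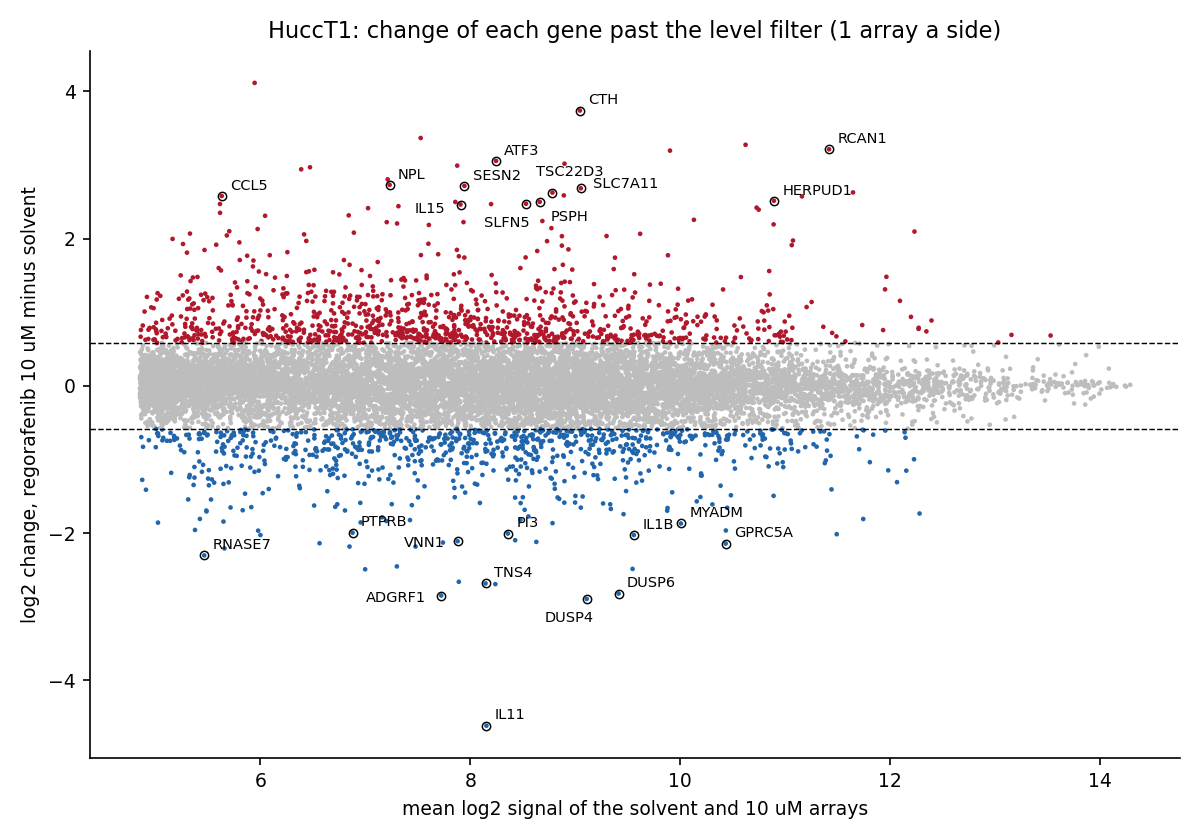
Log2 change at 10 μM against the mean log2 signal of both arrays for 12766 HuccT1 genes, 1 point per gene, red above and blue below the dashed 1.5-fold lines. Circles name the 12 largest rises and 12 largest falls among genes whose probe sets all passed the cutoff the same way; IL11 at -4.62 is the lowest point and CTH at 3.74 the highest circled point.

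The largest agreeing rises joined amino acid metabolism, stress signalling and cytokines. CTH, which releases cysteine from cystathionine, had signals of 144, 483 and 1930.2 on the solvent, 1 μM and 10 μM arrays, the order in which all signals are given here, and a log2 change of 3.74 at 10 μM. RCAN1, an inhibitor of the phosphatase calcineurin, read 898, 3410.3 and 8338, a log2 change of 3.21. ATF3, a stress-induced repressor of the ATF family, read 105, 99.9 and 875, so that its signal at 1 μM lay at the solvent level and only the 10 μM array was high. SESN2, a leucine sensor that restrains the growth kinase complex mTORC1, read 96.0, 210.1 and 631. TSC22D3, the glucocorticoid-induced leucine zipper, read 177, 362 and 1094, and its remaining probe set, under the level filter, gave a log2 change of -0.15. SLFN5, an interferon-regulated Schlafen gene, was higher in all 6 of its probe sets, by log2 1.18 to 2.93. NPL, a lyase of sialic acid breakdown, had a log2 change of 2.73. Of the cytokines, IL15, which sustains lymphocytes, read 102, 278 and 564. The chemokine CCL5 read 20.3, 26.6 and 121, and its solvent signal lay under the array median of 28.8, so that the size of its fold rests on a dim reading.

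Among the agreeing falls IL11 stood first. IL11, a relative of interleukin 6 that acts in fibrosis and epithelial repair, read 1411, 197 and 57.5 on the solvent, 1 μM and 10 μM arrays, a log2 change of -4.62, while its second and much dimmer probe set gave -1.11. ADGRF1, an adhesion G protein-coupled receptor, read 567, 217 and 78.7 and was lower in all 4 of its probe sets. TNS4, a tensin that binds integrin and growth factor receptor complexes, read 718, 274 and 112. GPRC5A, a retinoid-induced orphan receptor, read 2905, 1799 and 658. IL1B, the inflammatory cytokine interleukin 1 beta, read 1522, 628 and 374, and PI3, the elastase inhibitor elafin, read 657, 316 and 164. The antimicrobial ribonuclease RNASE7, the receptor phosphatase PTPRB and the membrane protein MYADM read 98.1, 36.7 and 19.9, 235, 181 and 58.9 and 1967, 1499.9 and 538. The 10 μM signal of RNASE7 lay under the array median of 28.9, so the size of its fold rests on a dim reading. In IL11, ADGRF1, TNS4, GPRC5A, IL1B and PI3 the 1 μM signal lay between the other 2.

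Regulators of the integrated stress response were higher as a group. Of 19 measured members, 12 were higher and 1 lower, with a median log2 change of 0.96, beside a background of 8.26% higher and a median of 0.02 over all genes. ATF4, the central factor, read 3397, 5817 and 6506. DDIT3 (CHOP), a CEBP-family factor tied to cell death under prolonged stress, read 316, 726 and 2898, a log2 change of 3.20 from its single probe set. CHAC1, which degrades glutathione, read 83.2, 278 and 662. TRIB3, a pseudokinase that restrains ATF4, read 1088, 2123 and 4276, with both probe sets higher. PPP1R15A (GADD34), which guides the phosphatase that reverses eIF2 phosphorylation, read 280.3, 182 and 701, lower than solvent at 1 μM and higher at 10 μM. EIF2AK3 (PERK), the eIF2 kinase of the endoplasmic reticulum, read 292, 338 and 780.1, whereas the amino acid sensor EIF2AK4 (GCN2), the haem-sensing EIF2AK1 (HRI) and the double-stranded RNA sensor EIF2AK2 (PKR) had log2 changes of -0.22, -0.07 and 0.13. The exception was ATF5, a close relative of ATF4, which read 154, 92.3 and 66.6 and was lower in 2 of its 3 probe sets.

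Genes of serine, one-carbon and amino acid synthesis showed a similar shift, with 9 of 16 higher, none lower and a median of 0.77. ALDH1L2, the mitochondrial enzyme that oxidizes formyl-tetrahydrofolate, read 14.8, 108 and 257, from a solvent signal under the array median. ASNS, asparagine synthetase, read 507, 1363 and 4907, a 9.68-fold difference from the only probe set past the level filter. A second probe set near the floor of the array gave a log2 change of 0.07. The serine pathway starts with PHGDH, which read 232, 537 and 948, and ends with PSPH, which read 170.2, 493 and 963 and was higher in both probe sets. PSAT1, the step between them, read 48.5, 38.6 and 34.3, near the array median and within the cutoff. The mitochondrial folate enzymes SHMT2 and MTHFD2 had log2 changes of 0.80 and 0.74, while their cytosolic counterparts SHMT1 and MTHFD1 had 0.08 and -0.15. PCK2, the mitochondrial phosphoenolpyruvate carboxykinase, read 113, 238 and 529.

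Amino acid transporters were divided, with 3 of 13 higher and 2 lower. SLC7A11, the light chain of the cystine-glutamate exchanger, read 209, 431 and 1347 and was higher in all 3 probe sets. Its heavy chain SLC3A2 read 887, 1247 and 4059.6. SLC1A4, an exchanger of small neutral amino acids such as alanine and serine, read 139, 216 and 295, with 4 probe sets from 0.41 to 1.09. The leucine transporter SLC7A5, which pairs with the same heavy chain, had a log2 change of 0.27, and the basic amino acid transporters SLC7A6 and SLC7A2 were lower, by log2 -1.10 and -0.73.

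Enzymes that charge tRNA are described by compartment. Of 17 cytosolic synthetases 6 were higher and none lower, with a median log2 change of 0.41. AARS1, which charges alanine tRNA, read 639, 1191 and 1596; CARS1, for cysteine, read 1628, 2485 and 3420.2 and was higher in all 3 probe sets; and GARS1, which charges glycine tRNA in both compartments, read 3958, 5010.5 and 7325. The tyrosine enzyme YARS1 had a log2 change of 0.92, which was 0.44 in its other probe set. Without probe sets that can match several transcripts 3 cytosolic synthetases were higher. GARS1, with only such a probe set, then drops out of the count, while YARS1 falls within the cutoff. Of 15 mitochondrial synthetases none was higher and 1 was lower, with a median of -0.27. That gene, MARS2 for mitochondrial methionine, read 132, 67.4 and 72.4.

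Other stress programmes moved less. Of 17 endoplasmic reticulum chaperone and degradation genes 3 were higher: HERPUD1, a membrane protein of the degradation complex, read 795, 1489.6 and 4546; DNAJB9, a lumenal co-chaperone, read 513, 680.3 and 2450.0; and XBP1, a transcription factor of the unfolded protein response, read 482, 640.4 and 994. The abundant chaperone HSPA5 (BiP) read 9779.6, 8932 and 11312, a log2 change of 0.21, and CALR and HSP90B1 had -0.16 and -0.01. Of 15 NRF2 targets SLC7A11 alone was higher, with NQO1 at 0.02, GCLM at 0.30 and HMOX1 at 0.44. Of 13 heat shock genes DNAJB4 was higher at 0.98 and CHORDC1 lower at -0.67, the latter being -0.054 in a second probe set under the level filter, while the inducible co-chaperone DNAJB1 read 877, 656 and 904.

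Promoters were searched for the composite element that ATF4 and CEBP proteins are known to bind. In RefSeq promoters on GRCh38.p14, from 250 bases before to 50 bases after the gene start, the element TGATGNAAN was sought on both strands, with N as any base. It can share bases with an AP-1 site. Counts of promoters, here and below, are counts of genes with a match at any of their listed starts. Genes with more starts therefore had more chances to match. The element was present in 293 of 10318 genes past the level filter (2.84%), in 56 of 866 of the higher genes (6.47%), in 12 of 647 of the lower genes (1.85%) and in 28 of 261 of the genes higher past 2-fold (10.7%). By list it stood in 5 of 10 amino acid transporter promoters, 6 of 14 of cytosolic synthetases, 4 of 17 of the stress response regulators and 2 of 12 of amino acid synthesis, so in the last 2 lists most promoters lacked it. It stood in 1 of 17 promoters of endoplasmic reticulum genes, 1 of 13 of mitochondrial synthetases and 0 of 11 of NRF2 targets. Lists with few or no higher members held it too, with 2 of 8 regorafenib target kinases and 2 of 12 each of Hippo components and p53 and GADD45 genes. Windows of 30 bases around the match, 5′ to 3′ on the strand of the gene with the match in capitals, are shown for 5 higher genes, of which HERPUD1 is the 1 endoplasmic reticulum gene that holds the match. In ASNS the capitals read as the element itself, and in the other genes they hold its reverse complement.
ASNS at chr7:97872457-97872486, minus strand: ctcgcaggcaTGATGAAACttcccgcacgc
CHAC1 at chr15:40953251-40953280, plus strand: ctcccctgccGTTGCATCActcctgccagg
HERPUD1 at chr16:56931955-56931984, plus strand: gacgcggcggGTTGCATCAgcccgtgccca
AARS1 at chr16:70289675-70289704, minus strand: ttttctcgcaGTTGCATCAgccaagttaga
GARS1 at chr7:30594834-30594863, plus strand: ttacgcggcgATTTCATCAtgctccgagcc
A match of letters is a description and not a measured binding site.

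**Figure D2:**
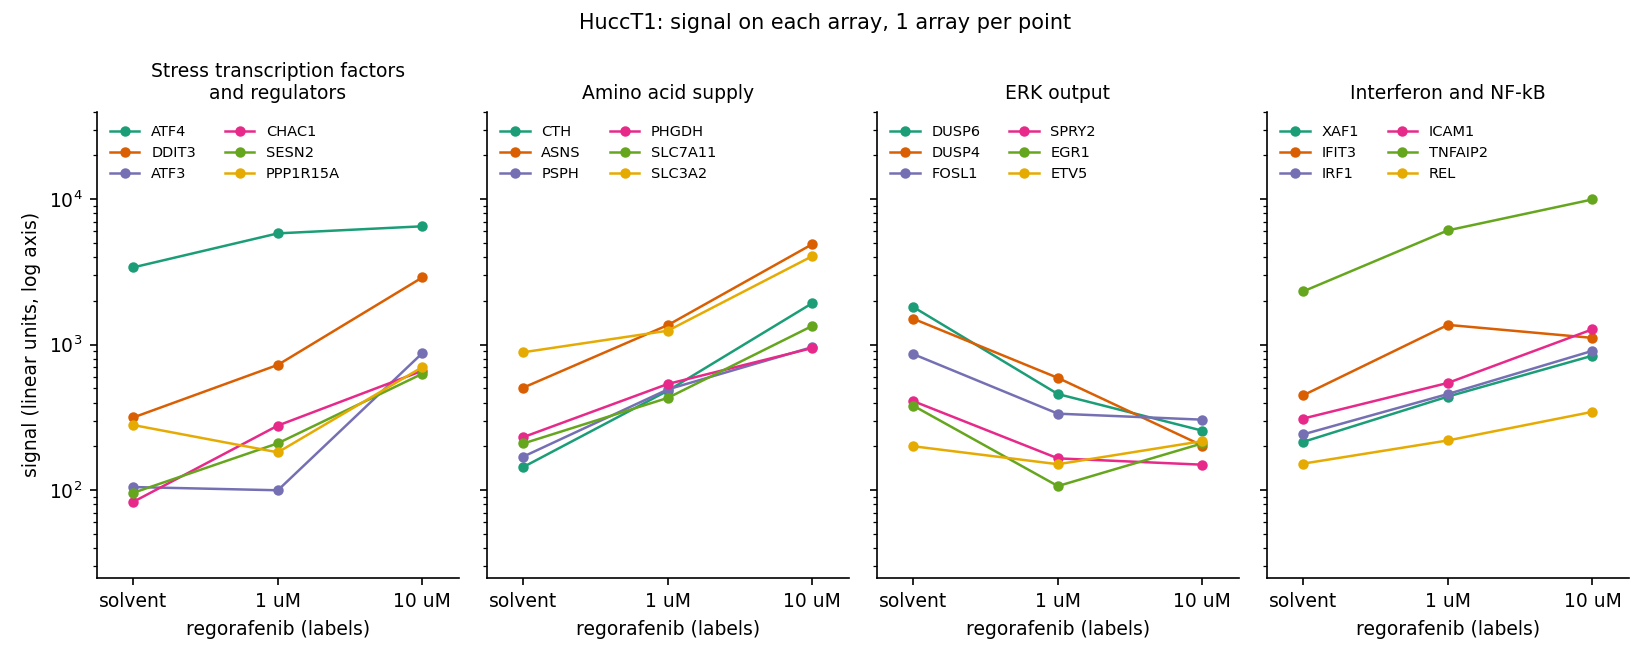
Signal (linear units on a log axis) of 24 genes on the 3 HuccT1 arrays, 1 array per point, in 4 groups. Stress and amino acid genes climb to the 10 μM array, with ATF3 and PPP1R15A at or under solvent at 1 μM, ERK output genes drop already at 1 μM, and EGR1 and ETV5 lie higher at 10 μM than at 1 μM.

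ERK output genes held the largest share of lower members among the 38 lists. None of 20 members was higher and 14 were lower past 1.5-fold, beside a background of 6.44%, with a median log2 change of -0.82. DUSP6, the cytoplasmic phosphatase of ERK, read 1812, 458 and 256, and its 3 probe sets gave -2.88 to -2.80. DUSP4, the nuclear phosphatase of the same family, read 1506, 591 and 202. FOSL1 (FRA1), an AP-1 subunit stabilized by ERK, read 860.5, 336 and 305, and SPRY2, a Sprouty inhibitor, read 409, 165 and 149.7. PHLDA1, a pleckstrin-domain protein induced by growth factors, was lower in all 6 of its probe sets and read 3356, 1872 and 1893. DUSP5, SPRY4 and SPRED1 read 671, 222 and 282, 200.4, 115 and 129 and 399.8, 199.7 and 271, in each case lowest at 1 μM. The ETS factors differed among themselves: ETV4 read 162, 93.7 and 90.3, ETV5 200.4, 151 and 217, and ETV1 stood near the array median at 39.0, 40.6 and 39.0.

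Immediate early genes, which respond to growth factors within minutes, were mixed, with 3 of 18 higher, 4 lower and a median of -0.20. MYC, the growth-promoting transcription factor, read 2479.6, 1149 and 787. MAFF, a small MAF protein, read 1975, 800.0 and 693, with both probe sets lower. EGR1 read 380.4, 107 and 209.9, JUN 1664, 767 and 1913 and IER2 1515, 879 and 1101, so the 1 μM signal was the lowest of the 3 arrays in each of these genes. FOS was dim at 55.6, 33.4 and 49.5. Higher were ATF3, the TGF-beta-induced factor KLF10, which read 687, 594 and 1476, and KLF4, which read 341, 386 and 649.7. KLF2 had a log2 change of -1.28, and -0.09 in a second probe set under the level filter.

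Of 9 EGF family ligands, receptors and regulators past the level filter, 3 were lower and none higher, with a median of -0.08, and the lower ones were all ligands. HBEGF read 1839, 722 and 916, TGFA 1433, 743 and 897 and EREG 3206, 1734 and 2085, and each had its lowest signal at 1 μM. The 3 probe sets of TGFA ran from -1.12 to -0.30. The ligands BTC and NRG1 stayed within the cutoff at log2 changes of 0.48 and 0.01. EGFR read 801, 806 and 861, with all 9 of its probe sets within 1.5-fold, and ERBB2 and ERBB3 had log2 changes of -0.08 and 0.09. In the interleukin 6 family, besides IL11, the cytokine LIF read 457, 291 and 282 and the LIF receptor LIFR 219, 326 and 364. IL6 read 2460.4, 4021 and 1886, the signal-transducing subunit IL6ST had a log2 change of 0.16, and the feedback inhibitor SOCS3 had 0.08. None of 9 measured kinases known as regorafenib targets passed the cutoff, from FGFR1 at -0.31 to ABL1 at 0.51, and the vascular receptors FLT1 and TEK were dim.

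AP-1 sites, TGANTCA on either strand, were about as frequent in promoters of higher genes (8.66%) as of lower ones (9.12%), beside 7.43% of genes past the level filter. They stood in 3 of 13 promoters of ERK output genes, 3 of 9 of matrix protease genes and 3 of 10 of amino acid transporters. Windows of IL11 and MMP10, which were lower, and of SLC3A2, which was higher, are shown, since genes of either direction hold the site near their start.
IL11 at chr19:55370541-55370570, minus strand: ggcagggagggTGAGTCAggatgtgtcagg
MMP10 at chr11:102780677-102780706, minus strand: aaacacatgcaTGAATCAtactgttggtga
SLC3A2 at chr11:62881651-62881680, plus strand: acgagggtgggTGACTCAgcgtcctccttc

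NF-kB targets and inhibitors were higher in 11 of 19 cases and lower in none, with a median of 0.88, and in 6 cases once probe sets that can match several transcripts were left out. Genes with only such probe sets, among them TNFAIP2 and ICAM1, then drop out of the count. TNFAIP2, a TNF-induced gene of endothelial and epithelial cells, read 2326, 6101 and 9951. ICAM1, an adhesion molecule for leukocytes, read 311, 546 and 1275 and was higher in all 3 probe sets, and REL, an NF-kB subunit, was higher in all 4. NFKB1, which encodes the p50 subunit, read 608, 625 and 1300.3, and its inhibitor NFKBIA 1643, 2832 and 3621. TNFRSF9 (4-1BB) read 30.2, 47.1 and 232, starting near the array median, with a log2 change of 2.94 in its probe set past the level filter and 0.51 in a dimmer one. Of the chemokines CXCL8, CXCL1 and CXCL2, none passed the cutoff, unlike CCL5 above: CXCL8 read 7272, 7626 and 8417, CXCL1 10205, 9847 and 9052 and CXCL2 6639, 5784 and 8092, all bright.

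Interferon-stimulated genes were higher in 9 of 23 cases and lower in none, with a median of 0.42. XAF1, an inhibitor of anti-apoptotic proteins, read 215, 440.0 and 840.1 with all 3 probe sets higher. IFIH1 (MDA5), a sensor of double-stranded RNA, read 139.7, 213 and 407, with a second and dimmer probe set at a log2 change of 0.44. IFIT1, IFIT2 and IFIT3, antiviral proteins that bind RNA, read 216, 787 and 492, 98.4, 329 and 268 and 449.7, 1367 and 1113, and in all 3 the 1 μM array was the highest. A second probe set of IFIT2 gave a log2 change of 0.40, within the cutoff. Several classical members did not follow: ISG15 read 1789, 1892 and 1825, IFI27 2757, 3061 and 2875 and IFI6 328, 344 and 343. MX1 had a log2 change of 0.34. Of 15 antigen processing genes 4 were higher. IRF1, a regulator of both groups, read 242, 458 and 907. NLRC5, the activator of class I genes, read 39.3, 61.7 and 112, and the immunoproteasome subunit PSMB9 865, 1423 and 1858. The class I heavy chains HLA-B, HLA-C and HLA-E and their partner B2M had log2 changes of 0.13, 0.17, 0.17 and 0.05. ERAP1, a peptide-trimming protease, had a log2 change of 0.65 and its 4 probe sets ran from 0.03 to 2.64.

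The core of the interferon response element (TTTC, 2 bases of any kind, then TTTC, on either strand) stood in 13 of 17 promoters of the interferon-stimulated list (76.5%) and in 9 of 13 of antigen processing (69.2%), beside 3.79% of genes past the level filter. Among all higher genes it was found in 47 of 866 (5.43%) and among lower genes in 28 of 647 (4.33%). Shown are windows of IFIH1 and IFIT3, which differ in which dose gave the higher signal, with the match in capitals on the strand of the gene.
IFIH1 at chr2:162318824-162318853, minus strand: gagaattcgcTTTCCTTTTCtgtttcccgc
IFIT3 at chr10:89327865-89327894, plus strand: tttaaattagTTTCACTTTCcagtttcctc

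**Figure D3:**
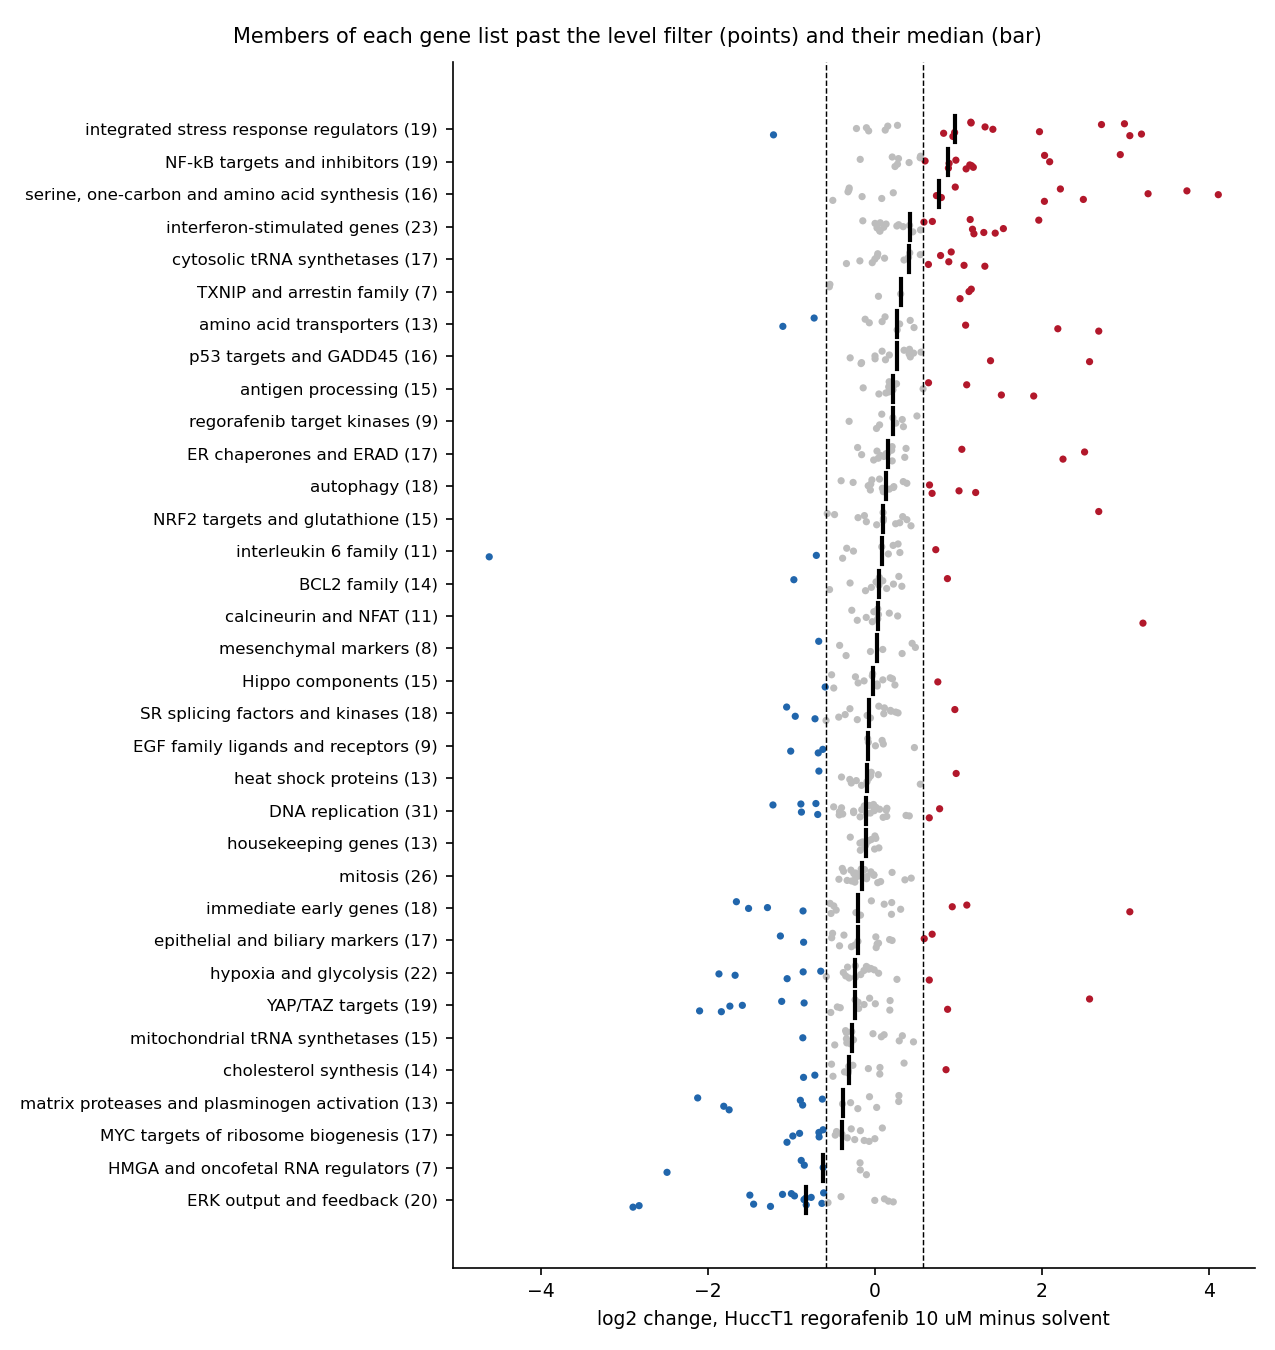
Log2 change at 10 μM in HuccT1 of the members of 34 gene lists past the level filter (number in brackets), 1 point per gene, red above and blue below the dashed 1.5-fold lines, with a black bar at the list median. Medians run from -0.82 for ERK output to 0.96 for regulators of the integrated stress response, and the 26 mitosis and 13 housekeeping genes all lie within the lines.

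Mitosis genes stayed near solvent, whereas some genes of DNA replication and some G1 cyclins were lower. None of 26 mitosis genes passed 1.5-fold, from PLK1 at -0.43 to AURKB at 0.44. Of 31 DNA replication genes 5 were lower and 2 higher, with a median of -0.10: UHRF1, a reader of hemimethylated DNA, read 1799.5, 1399 and 773; cyclin E1 (CCNE1) read 389, 189 and 211; and the replication factor RFC4 read 1309.9, 1660.5 and 2247. MCM10, an initiation factor, had a log2 change of -0.88, with 3 probe sets from -0.88 to -0.37. Cyclin D1 (CCND1) read 2506, 1368 and 1288 in its brighter probe set, and the cyclin-dependent kinase inhibitor CDKN1B read 1253, 1478 and 1788. Cyclin D3 (CCND3) stayed within the cutoff at a log2 change of -0.13.

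Of 17 ribosome biogenesis genes that MYC is known to induce, 6 were lower and none higher, with a median of -0.39. NOP16, a nucleolar protein, read 3829.7, 2057 and 1849, with 4 probe sets from -1.05 to -0.06. RRS1, a ribosome assembly factor, read 2303, 1364 and 1167, and WDR43, a processome subunit, 749, 408 and 401. WDR3, another processome subunit, had a log2 change of -0.67, and 0.12 in a second probe set under the level filter. The abundant nucleolar proteins NPM1 and FBL had 0.00 and -0.13.

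Of 16 p53 and GADD45 genes 2 were higher and none lower. Of 14 BCL2 family genes 1 was higher and 1 lower, beside backgrounds of 8.26% higher and 6.44% lower. GADD45A, a stress gene induced by p53 and by ATF4, read 938, 1691 and 5585, and GADD45B read 556, 825 and 1457 and was higher in all 4 probe sets. These were the only higher genes among 16 p53 and GADD45 genes: CDKN1A read 694, 403 and 620.2 and MDM2 1015, 1060.5 and 911. In the BCL2 family PMAIP1 (NOXA), which neutralizes MCL1, read 869, 734 and 1589.8, and BIK, another BH3-only protein, read 2531, 2220.5 and 1294. BCL2L11 (BIM) read 171, 136 and 178 in its brightest probe set, and its 6 probe sets ran from -0.20 to 0.68.

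Transcripts of a glucose transporter and a hexokinase were lower. HK2, the inducible hexokinase, read 841, 408 and 231 and was lower in all 3 probe sets, and the glucose transporter SLC2A1 read 1156, 674 and 363. PFKFB3, which raises the activator of phosphofructokinase, read 437, 312 and 241, and the hypoxia marker ANKRD37 353, 219 and 171. Later glycolytic enzymes stayed within the cutoff, with LDHA at -0.10, ENO1 at -0.08 and PGK1 at -0.07. In all, 5 of 22 hypoxia and glycolysis genes were lower and 1, the angiogenic factor VEGFA, higher at 1173, 1052 and 1846.

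TXNIP, an arrestin that lowers glucose uptake, read 1284, 456 and 2609.7, and its relative ARRDC4 read 315, 171 and 703. In both the 1 μM array lay under solvent and the 10 μM array above it, and ARRDC4 rests on a single probe set whereas TXNIP was higher in all 3. ARRDC3 read 343, 459.6 and 752. Of 14 cholesterol synthesis genes 1 was higher and 2 were lower, with a median of -0.31. They include HMGCS1, the enzyme before the committed step, at 487, 548 and 269.6, squalene epoxidase SQLE at 1700.1, 1307 and 1035 and the desaturase SC5D in the other direction at 792, 804 and 1433, whose second probe set gave only 0.25.

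Targets of the coactivators YAP and TAZ gave 6 lower and 2 higher genes among 19, with a median of -0.23. The paper came to YAP1 through a prediction of upstream regulators from its array data. It then examined YAP1 by reporter assays, western blots, a YAP1 inhibitor, knockdown and overexpression, which the arrays here do not measure. ANKRD1, a nuclear ankyrin repeat protein, read 712, 543 and 166; CCN2 (CTGF), a matricellular protein, read 278, 115 and 77.8; and F3, tissue factor, read 9076, 5882 and 2728. CCN1 (CYR61) read 5689, 4860.0 and 3952, within the cutoff in this probe set and at -0.75 in the other. NT5E and TGFB2 were lower in all of their probe sets, by log2 -0.85 and -1.11. The higher members were GADD45A and AJUBA, a LIM-domain scaffold that read 1508, 2416 and 2764. YAP1 itself read 2165, 2023 and 1542, with its 3 probe sets from -0.49 to -0.44, and WWTR1 (TAZ) 1081, 803 and 717. WWTR1 had a log2 change of -0.59, just past the cutoff, and -0.57 and -0.48 in its other probe sets. Under quantile normalization or the median over probe sets it fell within the cutoff. Among 15 Hippo components the kinase LATS1 was higher at 244, 202 and 413.

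Of 17 epithelial and biliary markers 2 were higher and 2 lower, and of 8 mesenchymal markers none was higher and 1 was lower, with medians of -0.20 and 0.02 that changed sign under some alternatives. E-cadherin (CDH1) read 2628, 3238 and 2714, vimentin (VIM) 2455, 2522 and 1936 and SNAI2, a repressor of epithelial genes, 914, 681 and 1282. The biliary transcription factor SOX9 was lower at 1408, 687 and 644. The tight junction protein CLDN4 read 329, 313 and 182, a log2 change of -0.85 that was 0.03 in its other probe set. ESRP1, a splicing regulator of epithelial cells, read 1643, 2238 and 2481, just past the cutoff, and the epithelial factor ELF3 read 313, 675 and 504, with a log2 change of 0.28 in its lowest probe set. PTGS2 (cyclooxygenase 2) read 519, 421 and 772, under the cutoff. Of 13 genes of matrix proteolysis, 6 were lower and none higher, with a median of -0.38: the plasminogen activators PLAT and PLAU read 825, 322 and 189.9 and 3038, 2782 and 1639, the collagenase MMP1 read 1288, 342 and 385, the stromelysin MMP10 80.3, 39.4 and 22.9 and the receptor PLAUR 1195, 596 and 774. The 10 μM signal of MMP10 lay under the array median of 28.9, so the size of its fold rests on a dim reading. HMGA2, an oncofetal chromatin protein, read 1770.4, 907 and 316, lower past the cutoff in 4 of 5 probe sets and by -0.46 in the other.

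Autophagy genes were higher in 4 of 18 cases, with a median of 0.14. MAP1LC3B (LC3B), which coats autophagosomes, read 395, 346 and 915, and its relative GABARAPL1 224, 448 and 450.4. The other probe set of MAP1LC3B gave a log2 change of 0.58, within the cutoff. SQSTM1 (p62), a cargo receptor, read 1505, 1636 and 2425, with 1 of 4 probe sets past the cutoff. Of 18 SR splicing factors and kinases 3 were lower and 1 higher, with SRSF7 at 3844, 2272 and 1988 and the kinase CLK4 at 266, 405 and 519. RCAN1 was the only gene past the cutoff among 11 of calcineurin and NFAT, and the calcineurin subunits PPP3CA and PPP3CB had log2 changes of 0.05 and 0.18.

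Some genes that passed the cutoff at 10 μM lay near solvent at 1 μM. Among the 200 agreeing higher genes, 72 were within 1.2-fold of solvent at 1 μM, and among the 178 lower genes 51. The largest such rises after ATF3 were SLC30A1, a zinc exporter, at 2392, 2059 and 6682; OSBPL6, an oxysterol-binding protein relative, at 34.5, 37.6 and 87.2; PRKAB2, a regulatory subunit of AMP-activated kinase, at 253, 275 and 628; and KLHL28 at 164, 172 and 404. The largest such falls were VNN1, a pantetheinase, at 489, 523 and 113; CD59, which blocks the complement attack complex, at 6421, 5645 and 1832; C1orf116 at 942, 786 and 299; HEG1, an endothelial and epithelial membrane protein, at 390.3, 375 and 137; and FST, the activin antagonist follistatin, at 905, 1016 and 319. CD59 was lower in all 5 probe sets. Closeness of the solvent and 1 μM arrays was the rule by which these genes were chosen. How many of all genes lay within 1.2-fold of solvent at 1 μM was not counted, so 72 and 51 have no background share. At 1 μM 3.53% of all genes were higher and 3.4% lower past 1.5-fold, so most genes lay within that cutoff.

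**Figure D4:**
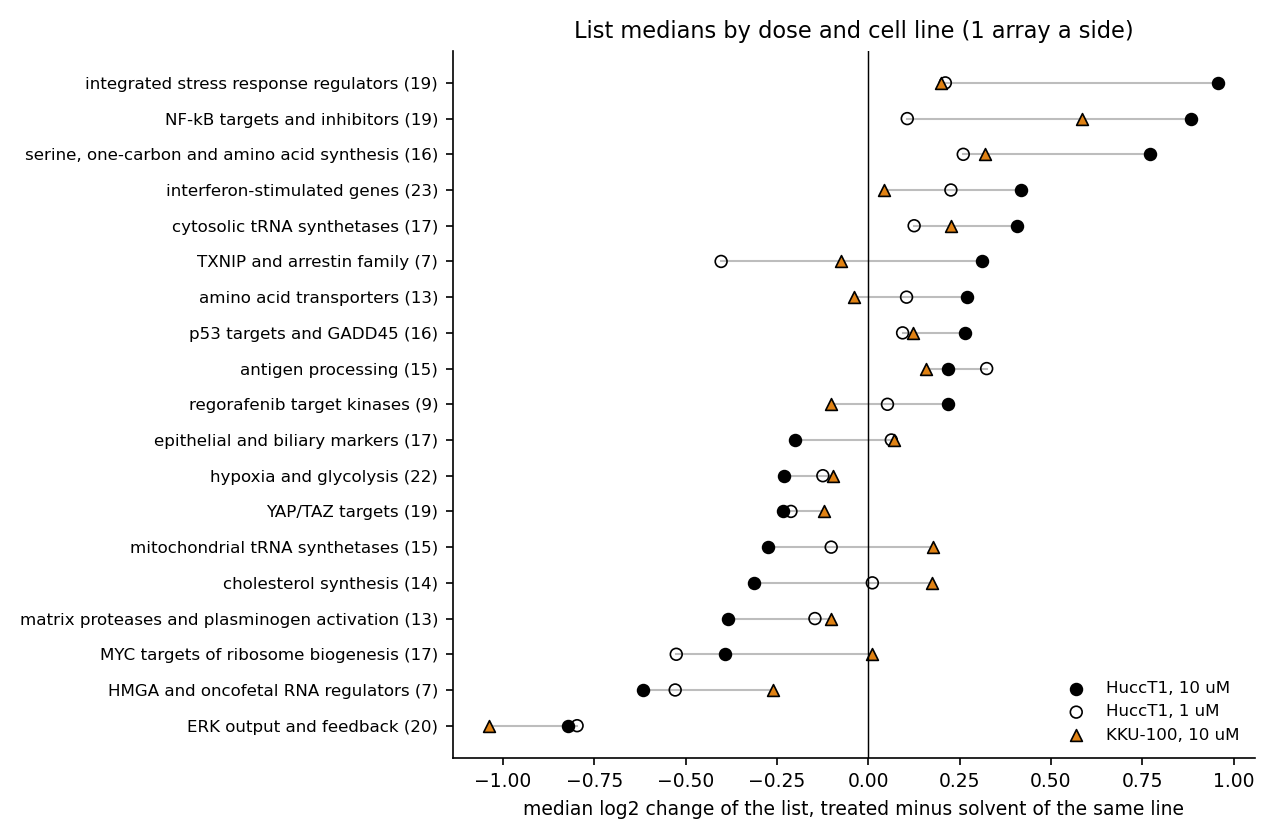
Median log2 change against the solvent array of the same line for the 19 gene lists whose HuccT1 10 μM median passed 0.2 in size, with members past the level filter in brackets. Filled circles are HuccT1 at 10 μM, open circles HuccT1 at 1 μM and triangles KKU-100 at 10 μM; the regulators of the integrated stress response are at 0.96, 0.21 and 0.20, and ERK output at -0.82, -0.80 and -1.04.

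The 1 μM array gave smaller changes over the same 12766 genes, with 451 higher (3.53%) and 434 lower (3.4%). Both doses share the solvent array, so a gene that moved at both is not a repeat. Of the agreeing genes, 65 of the 200 higher were also higher at 1 μM and 3 were lower, and the medians were log2 0.37 at 1 μM and 1.03 at 10 μM. Of the 178 lower genes, 61 were also lower and 1 was higher, with medians of -0.40 and -0.92. The lists differed in how much of the change was present at the lower dose: ERK output had medians of -0.80 and -0.82, MYC-induced ribosome biogenesis -0.53 and -0.39, and regulators of the integrated stress response 0.21 and 0.96.

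KKU-100 cells at the same labelled dose gave 1139 higher (8.92%) and 601 lower (4.71%) of these genes. Their ACTB 3' to 5' ratio went from 1.27 to 1.68, and its part in the values was not tested. Of the 200 agreeing higher HuccT1 genes 62 were higher in KKU-100 and 10 lower, and of the 178 lower genes 42 were lower and 11 higher. Side by side, DUSP6 changed by log2 -2.82 in HuccT1 and -3.46 in KKU-100, TNFAIP2 by 2.10 and 2.29, and PCK2 by 2.23 and 2.28. Of 16 genes of amino acid synthesis 9 were higher in HuccT1 and 3 in KKU-100, with medians of 0.77 and 0.32. ALDH1L2, SLC1A4 and AARS1 were higher in both lines, at 4.12 and 1.46, 1.09 and 1.00, and 1.32 and 0.94. Other genes differed more in size, with ASNS at 3.28 and 0.15, CTH at 3.74 and 0.17, ATF4 at 0.94 and -0.02 and DDIT3 at 3.20 and 0.81. In KKU-100, ASNS read 1824, 803 and 2018, DDIT3 1177, 451 and 2066 and CTH 228, 167 and 257. Each of them was lowest at 1 μM there and had a higher solvent signal than in HuccT1. The part of the solvent level in these differences was not tested. IL11 was at -4.62 in HuccT1 and -0.49 in KKU-100, and FOS, near solvent in HuccT1 at -0.17, was at -4.98 in KKU-100. With 1 array a side, these differences between lines have no replicate check.

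Probe sets of 17 genes passed the cutoff in opposite directions, and the 5 widest gaps are described here. PMS1, a mismatch repair gene, had a pair of probe sets higher by log2 2.18 and 2.47, its brightest at -0.16 and the dimmest at -0.93. ERN1 (IRE1), the kinase and nuclease of the unfolded protein response, had its brightest probe set at signals of 490 with solvent, 491 at 1 μM and 1180 at 10 μM, and another at 309, 192 and 146. DIDO1, a chromatin reader, ran from -1.71 to 1.10 over 4 probe sets, and PCGF3, a Polycomb subunit, from -1.32 to 0.75. MALAT1, a nuclear long noncoding RNA, had 4 of 11 probe sets higher, by log2 0.75 to 0.94, and 1 lower at -1.32. For these genes no direction is given, since it depends on the probe set, and which transcript part each probe set covers was not analysed here.

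**Figure D5:**
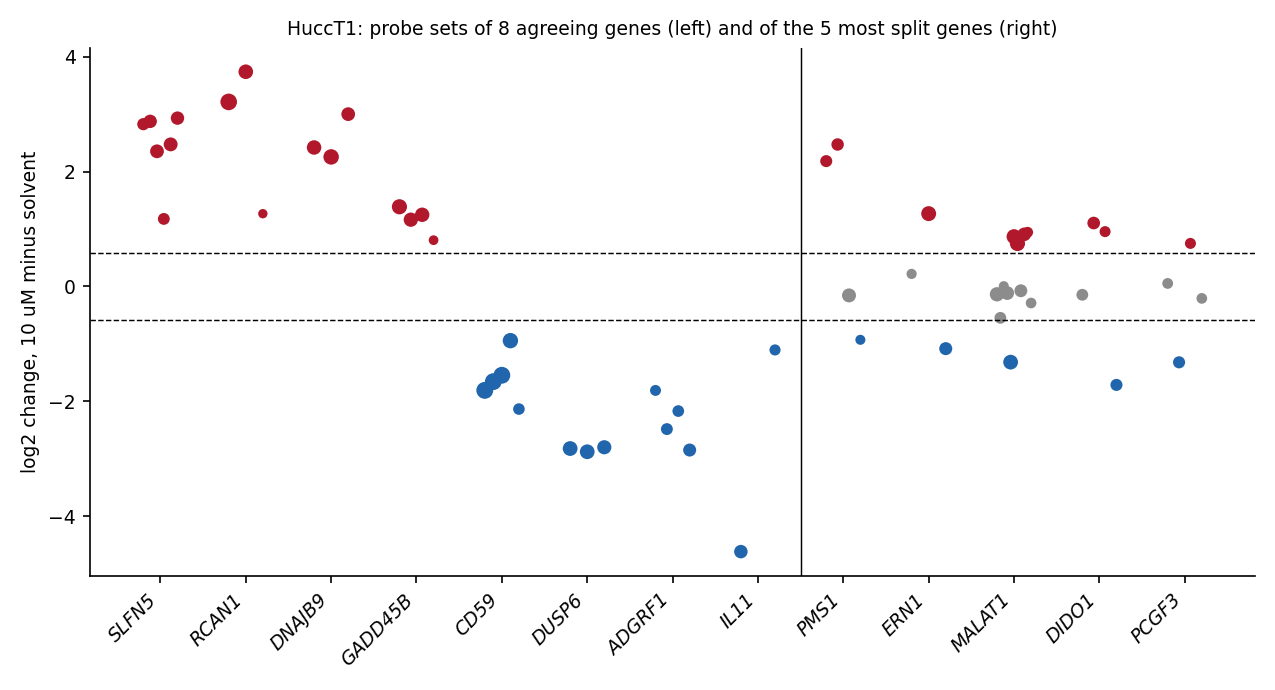
Log2 change at 10 μM in HuccT1 of each probe set past the level filter, for 8 genes whose probe sets agreed (left) and the 5 genes with the widest split (right), with larger points for brighter probe sets and dashed lines at 1.5-fold. The 6 probe sets of SLFN5 and the 5 of CD59 lie on 1 side, and the 4 of PMS1 span -0.93 to 2.47.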

How the data were processed

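RNA of HuccT1 and KKU-100 cells was measured on 6 Affymetrix arrays, 1 per line and treatment, grouped by their labels. Each deposited value is the linear signal intensity of a probe set, which the authors computed with MAS5 per the processing notes (version not given in the sources used here), while the paper's methods describe a log2 normalization made in GeneSpring. Signals were log2 transformed with no further scaling, after leaving out 62 of 54675 probe sets as controls. The annotation gave 41097 probe sets 1 symbol, 1801 several and 11777 none, and 41037 symbols were updated through gene IDs to RefSeq on GRCh38.p14. A probe set passed the level filter when its log2 signal minus the array median, averaged over both arrays, exceeded 0. A gene was represented by its own probe set with the highest mean log2 signal over the 6 arrays. Calls used 1.5-fold, with no p-value, as 1 array a side leaves no estimate of spread. The number of arrays limits the precision, as do dim signals and disagreement between probe sets.

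Named were the 12 largest rises and falls among genes whose several probe sets all passed 1.5-fold the same way, up to 4 called members of each of 38 gene lists whose probe sets shared a sign, the 5 largest agreeing rises and falls within 1.2-fold at 1 μM, and the 5 widest splits between probe sets. Also named were 12 of the genes that the paper followed by PCR, western blot or reporter assay. Other list members named in the text were chosen after their values were seen. The members and lists were chosen with earlier results of these data known. Alternatives were quantile normalization, centring on array medians, a floor at percentile 20 of each array, the level filter dropped, set at percentile 60 or asked of both arrays, a 2-fold cutoff, leaving out probe sets whose ID ends in _x_at or _s_at, and the median over probe sets. The counting was run on simulated data with large shifts and little noise, which checks the code and not the calls on the real arrays. Python 3.11.15, numpy 2.4.6, pandas 2.3.3 and matplotlib 3.10.9 were used.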

Additional observations from a re-analysis of the deposited data

Results flagged for a closer look

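Several named genes passed 1.5-fold in opposite directions at 10 μM in the HuccT1 and KKU-100 lines, each against its own solvent array. None of these differences was tested, since each line has 1 array a condition. SLC7A11, the cystine exchanger, changed by log2 2.68 in HuccT1 and -0.71 in KKU-100. GADD45B, a stress-induced growth arrest gene, changed by 1.39 and -1.09. The arrestins ARRDC4 and TXNIP changed by 1.16 and -2.57 and by 1.02 and -0.59. The co-chaperone DNAJB4 changed by 0.98 and -0.76, and KLHL28 by 1.30 and -1.08. On the solvent, 1 μM and 10 μM arrays of KKU-100, SLC7A11 read 2034, 830 and 1239 and GADD45B 1260, 381 and 590. KLHL28 read 1281, 198 and 604 there, ARRDC4 1830, 99.7 and 308 and TXNIP 833, 208 and 554. All of these were lowest at 1 μM in KKU-100, whereas DNAJB4 read 1055, 627 and 624. With solvent, all of them but TXNIP read higher in KKU-100 than in HuccT1. In the other direction, the cytokine LIF changed by -0.70 in HuccT1 and 0.59 in KKU-100, and HMGCS1, an enzyme of cholesterol synthesis, by -0.85 and 0.60.

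Outside the gene measurements, the control probe set for the 3' part of 18S ribosomal RNA read 3905 at 10 μM and 1735 with solvent, and 2244 at 1 μM. The probe sets for the 5' and middle parts of the same RNA were lower at 10 μM than with solvent, by log2 -0.25 and -0.44. In KKU-100 the 3' part was also higher at 10 μM, by log2 1.42.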

How the results depend on the processing

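Past 2-fold, 600 probe sets were higher and 606 lower, 330 genes were higher and 248 lower, and 72 and 51 genes had all of several probe sets higher or lower. Without probe sets whose ID ends in _x_at or _s_at, which can match several transcripts, 107 and 99 genes agreed, as fewer genes then had several probe sets. Under the other alternatives these counts stayed within 1.5 times. A few named genes turned direction: without those probe sets DIDO1 gave -1.71, TSC22D3 -0.15, LUM -0.00065 and WDR3 0.12, and the median over probe sets gave -0.074 for MALAT1. Of 682 list counts under the alternatives 65 moved by more than 1.5 times, 32 of them past 2-fold and 19 without those probe sets, where 1 amino acid transporter, 3 cytosolic synthetases and 6 NF-kB genes were higher. Genes that have only those probe sets drop out of these counts. The medians of 7 lists, each within 1.5-fold, changed sign under at least 1 alternative (immediate early, EGF family, calcineurin and NFAT, epithelial, mesenchymal, hepatocyte and fibroblast lists), and list medians kept their side of 1.5-fold except HMGA and oncofetal regulators (-0.62, or -0.23 with no level filter and -0.46 without those probe sets) and matrix proteolysis (-0.63 with a filter at percentile 60). The scalings moved the median of all probe sets by less than 0.01. Dim probe sets carry the least certain folds, and 1 array a side gives no error. No paired analysis was possible because each condition has 1 array and no test was made.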
